A study of Homo sapiens with 2 samples.

Results

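The long noncoding RNAs MALAT1, NEAT1, NORAD, TUG1, OIP5-AS1, KCNQ1OT1, CYTOR and DANCR were followed in RNA from HEK293T, a transformed cell line of human embryonic kidney origin. They were chosen by symbol, and each of the 8 matched 1 of the 57820 Ensembl gene IDs listed for both libraries. A control siRNA had been given to the cells of 1 library, here the control library, and the cells of the other, here the SRα library, had received an siRNA against SRα, the alpha subunit of the signal recognition particle receptor in the membrane of the endoplasmic reticulum, encoded by SRPRA. Both groups were the same cell line, and neither siRNA sequence, dose nor duration was analysed here. No replicates were present, so differences between the libraries were not tested, and intervals cover counting error alone.

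These RNAs are known as abundant long noncoding transcripts, but in these files the word held for only a few of them. MALAT1 had 427 reads in the control library and 650 in the deeper SRα library, and DANCR had 183 and 259. Among 13085 gene IDs of a long noncoding type, MALAT1 ranked 13 and DANCR 22 in both libraries. The further RNAs NORAD, TUG1, NEAT1, OIP5-AS1 and KCNQ1OT1, had between 6 and 20 reads in either library, and CYTOR had 0 in both. Where a lower count follows the amount of an RNA, fewer cells that make it and less RNA per cell cannot be told apart in bulk samples. The libraries came from an mRNA kit, and reads with several alignments were not assigned to genes. The part of either in these counts was not tested. For the 7 RNAs with reads, the interval of the ratio between the libraries included equality in every case, so no difference was detectable at this depth.

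Long noncoding RNAs are transcripts without a long translated reading frame, and many act as RNA, by holding proteins, shaping chromatin or sequestering microRNAs. MALAT1 lies in nuclear speckles, bodies rich in splicing factors, and NEAT1 is the scaffold on which paraspeckles assemble. KCNQ1OT1 stays at its own imprinted locus and silences neighbouring genes, whereas NORAD is largely cytoplasmic and binds Pumilio proteins, repressors of messenger RNAs. OIP5-AS1, also called Cyrano, directs the destruction of the microRNA miR-7, TUG1 has been linked to Polycomb silencing, DANCR restrains differentiation, and CYTOR is linked to the cytoskeleton.

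Genes took 2445200 reads in the control library and 3896721 in the SRα library, of which genes of a long noncoding type took 1.46% and 1.54%. SRPRA, the targeted message, had 507 and 449 reads, 205 and 117 CPM (counts per 1e6 reads after TMM scaling of library size), and a log2 ratio of -0.81 (95% counting interval -0.998 to -0.63). Reads that aligned to more than 1 place were not assigned to genes, and such alignments made up 79.6% and 76.5% of the entries in the 2 files. Of 10 genes listed for HEK293 cells, 8 were found and all had reads in both libraries, with VIM at 771 and 1485 reads and PAX2 at 1 and 7. Of 17 markers found for other cell types, 10 had no read in either library, among them the leukocyte marker PTPRC and the tubule marker UMOD, while the fibroblast gene COL1A1 had 31 and 44 reads, or 12.5 and 11.4 CPM, the largest part of the list's sum. That sum was 18.98 CPM in the control library and 17.15 CPM in the SRα library.

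The sequences below show features by which 5 of these RNAs are known or counted. They come from GENCODE 29 transcripts, a GRCh38 annotation matched by gene ID, and positions count from the start of the transcript. The 3′ stretches of MALAT1 (positions 8255 to 8355) and NEAT1 (22643 to 22743) are set side by side first, because these RNAs end in a triple helix in place of an ordinary poly(A) tail, and capitals mark the 3 runs of at least 8 bases that both share in the same order, TTTCTTTT, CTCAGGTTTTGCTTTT and the A-rich AAAAAGCAAAA.
MALAT1: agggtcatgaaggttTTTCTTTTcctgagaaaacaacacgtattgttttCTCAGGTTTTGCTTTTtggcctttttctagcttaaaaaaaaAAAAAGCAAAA
NEAT1: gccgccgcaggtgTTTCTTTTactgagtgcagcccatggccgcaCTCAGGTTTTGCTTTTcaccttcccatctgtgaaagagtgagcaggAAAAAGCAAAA
In MALAT1 another 353 bases of annotated transcript follow the A-rich motif, whereas in the long NEAT1 transcript it is the last sequence annotated. Searched on the sense strand of the longest transcript of 16054 long noncoding genes, the A-rich motif alone occurred in 67 (0.417%), and all 3 motifs in this order, the others within 90 bases upstream of the A-rich one, occurred in 2, MALAT1 and NEAT1. The motifs were read off these transcripts, so that count describes them and tests nothing.

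NORAD is shown for its Pumilio motifs, TGTANATA, where N is any base. Its 5339-base transcript held 15 of them on the sense strand, 6 of which lay in 3 pairs whose starts were 9 bases apart. The 3 pairs and a single motif are given with 11 bases on each side, the motifs in capitals.
NORAD, positions 1431 to 1469: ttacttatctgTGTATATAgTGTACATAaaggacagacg
NORAD, positions 2628 to 2666: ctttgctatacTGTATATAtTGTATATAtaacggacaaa
NORAD, positions 3264 to 3302: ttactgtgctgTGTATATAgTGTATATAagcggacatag
NORAD, positions 2961 to 2990: caaccctactgTGTATATAgcggacaaact
NORAD had 2.81 motifs per kilobase. Of 5770 long noncoding genes whose longest transcript had at least 1000 bases, 4 (0.0693%), NORAD included, reached that density and 4676 (81.0%) had no motif. Among 1663 long noncoding genes whose longest transcript was within a factor of 2 of its length, 3 (0.180%) had as many. The others were sparse: NEAT1 had 6 motifs in 22743 bases, KCNQ1OT1 9 in 91667, TUG1 2, OIP5-AS1 1, and MALAT1, CYTOR and DANCR 0.

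**Figure D1:**
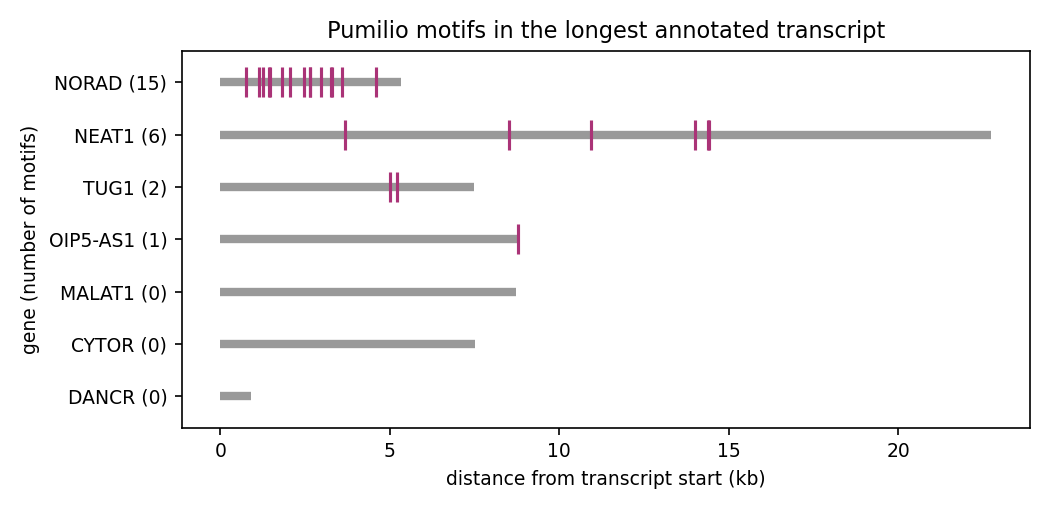
Position of the motif TGTANATA (vertical ticks) along the longest annotated transcript (grey bar) of 7 of the RNAs, with distance from the transcript start in kilobases on the x axis. NORAD carries 15 motifs in 5339 bases, against 6 in NEAT1, 2 in TUG1, 1 in OIP5-AS1 and 0 in MALAT1, CYTOR and DANCR; KCNQ1OT1, with 9 in 91667 bases, is not drawn.

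OIP5-AS1 is shown for its match to miR-7, whose mature sequence (RefSeq, GRCh38.p14) is given with the seed, bases 2 to 8, in capitals. The longest OIP5-AS1 transcript, 8829 bases, held 3 matches to that seed, GTCTTCC on the sense strand. The match at position 2887 was preceded by 14 further bases complementary to the other end of miR-7, and both stretches are in capitals.
hsa-miR-7-5p: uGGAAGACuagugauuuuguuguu
OIP5-AS1, positions 2865 to 2894: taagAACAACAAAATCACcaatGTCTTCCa
The other seed matches, at positions 724 and 8167, had no more than 5 and 3 such bases in a row upstream. A seed match occurred in 38.2% of 414 long noncoding genes whose longest transcript was within a factor of 2 of this length, and 2.90% had 3 or more. Sequence matches describe the transcripts and do not show binding in these cells.

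CYTOR is shown for the sequence it has in common with MIR4435-2HG, a duplicated long noncoding gene. The longest run that the annotated transcripts of both share exactly was 432 bases, and its first 150 bases, which lie at positions 295 to 444 of a CYTOR transcript of 1020 bases, read as follows.
CYTOR: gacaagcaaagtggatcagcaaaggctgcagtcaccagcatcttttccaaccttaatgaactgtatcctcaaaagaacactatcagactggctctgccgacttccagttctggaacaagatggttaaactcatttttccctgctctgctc

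MALAT1 and NEAT1, both RNAs of nuclear bodies, stood far apart in reads. MALAT1 (ENSG00000251562.3, chromosome 11) had 172 CPM in the control library (95% Poisson interval 156 to 190) and 169 CPM in the SRα library (156 to 182). The libraries overlapped, and the log2 ratio was -0.03 (-0.21 to 0.15), a ratio of 0.980 (0.866 to 1.11). This is the most precise value of the set, and its interval excludes a difference of 1.5-fold in either direction. NEAT1 (ENSG00000245532.4, chromosome 11) had 6 reads in the control library and 15 in the SRα library, or 2.42 CPM (0.889 to 5.27) and 3.90 CPM (2.18 to 6.43). Its intervals overlapped widely, and the log2 ratio of 0.65 (-0.76 to 2.34), the highest of the set, spans both a lower and a several-fold higher level. The files give 1 count per gene, so the short polyadenylated and the long form of NEAT1 cannot be told apart.

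**Figure D2:**
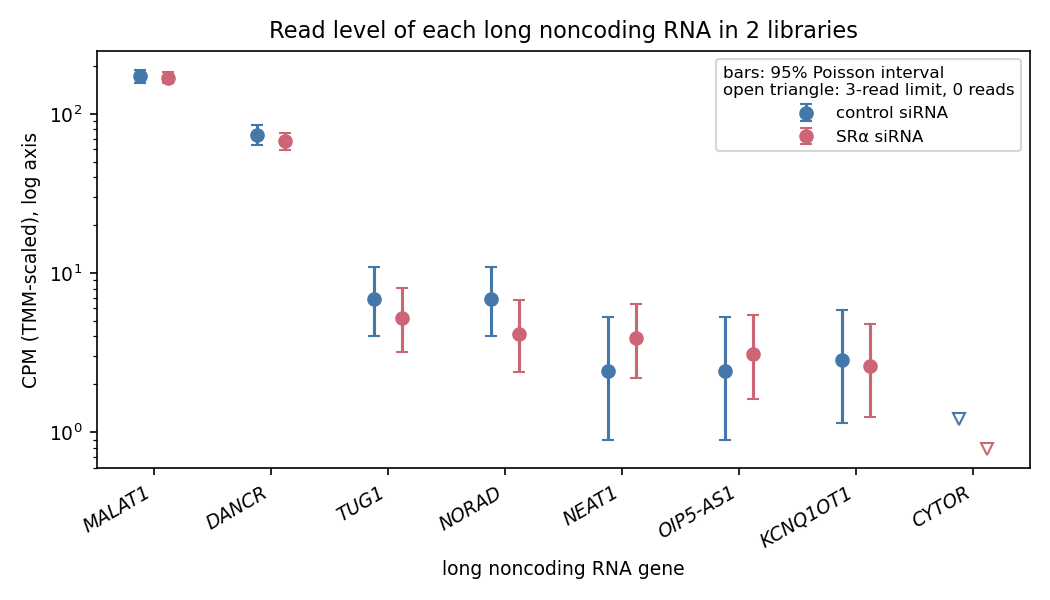
CPM of each RNA on a log axis in the control library (blue) and the SRα library (red), with 95% Poisson intervals as bars and open triangles at the level of 3 reads where the count was 0. MALAT1 near 170 CPM (172 and 169) and DANCR (73.9 and 67.3) stand above 5 RNAs between 2.42 and 6.87 CPM, and CYTOR has no read.

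KCNQ1OT1 (ENSG00000269821.1, chromosome 11), the antisense RNA of the KCNQ1 imprinted domain, had 7 and 10 reads, or 2.83 CPM (1.14 to 5.82) and 2.60 CPM (1.25 to 4.78). The log2 ratio was -0.11 (-1.66 to 1.51). Its annotated transcript is 91667 bases long and lies inside KCNQ1 on the opposite strand. Exons of KCNQ1 cover 121 of its bases (0.132%), and whether counting used strand is not given in the labels. Reads from KCNQ1 introns that lie over KCNQ1OT1 thus cannot be told apart from its own. KCNQ1 itself had 1 and 0 reads. Of 10 genes of the imprinted domain that were found, 7 were measured, meaning that their CPM averaged 1 or more over both libraries, with 4 higher and 3 lower and a median log2 ratio of 0.00. CDKN1C, the cell cycle inhibitor silenced by KCNQ1OT1 on the paternal chromosome, had 5 and 4 reads and was the 1 gene of the domain at least 1.5-fold lower, from these few reads. Of all genes averaging 1 to 10 CPM, as CDKN1C does, 19.1% stood 1.5-fold or more lower. Of all measured genes 6.97% did, and 51.4% had a ratio above 0. The tetraspanin CD81 had a log2 ratio of -0.13 (-0.22 to -0.03) and the histone chaperone NAP1L4 0.22 (0.07 to 0.37).

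NORAD and TUG1 gave nearly the same counts. NORAD (ENSG00000260032.1, chromosome 20) had 17 reads in the control library and 16 in the SRα library, or 6.87 CPM (3.999 to 10.99) and 4.16 CPM (2.38 to 6.75). The log2 ratio of -0.70 (-1.80 to 0.35) was the lowest of the set, and the intervals of the 2 libraries overlapped. TUG1 (ENSG00000253352.4, chromosome 22) had 17 and 20 reads, 6.87 CPM (3.999 to 10.99) and 5.20 CPM (3.17 to 8.03), and a log2 ratio of -0.39 (-1.41 to 0.62). At these counts a level 1.5-fold higher in the SRα library lies within the interval of TUG1 and outside that of NORAD, and a level 2-fold lower lies within both.

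The cytoplasmic OIP5-AS1 and DANCR differed in depth. OIP5-AS1 (ENSG00000247556.2, chromosome 15) had 6 reads in the control library and 12 in the SRα library, or 2.42 CPM (0.889 to 5.27) and 3.12 CPM (1.61 to 5.45). The log2 ratio was 0.34 (-1.16 to 2.06), with intervals that overlapped, and its sign turned (-0.21) when the deeper library was thinned to the depth of the other. OIP5, which shares 470 exonic bases with it on the opposite strand, had 61 and 90 reads. DANCR (ENSG00000226950.2, chromosome 4), a host of the H/ACA snoRNA SNORA26, had 73.9 CPM (63.6 to 85.4) and 67.3 CPM (59.4 to 76.0), and a log2 ratio of -0.13 (-0.41 to 0.15). SNORA26 had 22 and 35 reads, with a log2 ratio of 0.03 (-0.78 to 0.87).

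CYTOR (ENSG00000222041.6, chromosome 2) had no read in either library. A count of 0 allows up to 3 reads, which is 1.21 CPM in the control library and 0.780 CPM in the SRα library, and no ratio can be given. MIR4435-2HG, its copy, had 0 and 1 reads. Floors and intervals take reads as independent molecules, which reads without molecular identifiers are not.

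NEAT1 was the 1 of 7 measured RNAs that stood 1.5-fold or more higher in the SRα library, against 6.55% of all 12747 measured genes. That call was lost with a prior count of 2, at 0.57, when the deeper library was thinned, at 0.24, and when a mean of 5 CPM was required. NORAD was the 1 that stood 1.5-fold or more lower, against 6.97%. Both had few reads, and 0 of the 7 reached 2-fold, against 2.15% of measured genes higher and 2.57% lower, although NORAD stood at -1.01 after thinning. Over the 4203 genes averaging 1 to 10 CPM, a range chosen after the values were seen, 17.4% were 1.5-fold or more higher and 19.1% lower, and 6.28% and 7.76% passed 2-fold. The log2 ratio was above 0 for 2 of the 7, against 51.4% of measured genes and 47.3% of those averaging 1 to 10 CPM. The interval excluded 0 for 0 of the 7, against 8.85% and 4.09%. The median log2 ratio was -0.11, beside 0.01 for all measured genes, and these shares of so few RNAs are a description only.

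**Figure D3:**
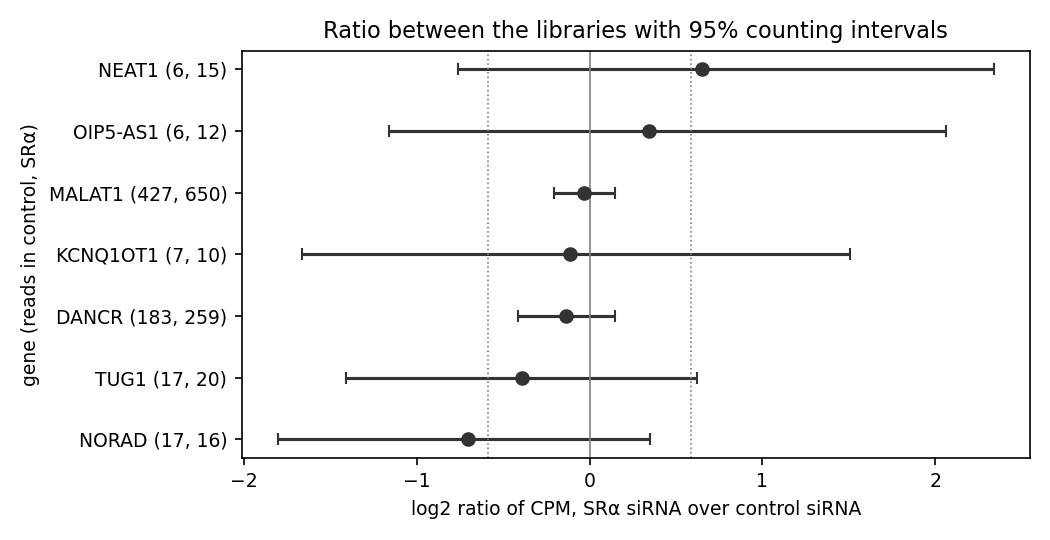
log2 ratio of CPM (SRα siRNA over control siRNA) of the 7 RNAs with reads, with 95% counting intervals as bars, reads in both libraries beside each name, and dotted lines at 1.5-fold. All 7 intervals cross 0; that of MALAT1 runs from -0.21 to 0.15, and that of NEAT1 from -0.76 to 2.34.

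Well-read genes, the 4007 that averaged 50 CPM or more, spread far less: 0.175% stood 1.5-fold or more higher and 0.0499% lower. In that range 32.5% of genes had a ratio below that of MALAT1 and 11.9% below that of DANCR, so both lay inside the bulk of well-read genes. In the range of 1 to 10 CPM, 86.3% of genes lay below NEAT1, 72.4% below OIP5-AS1, 45.8% below KCNQ1OT1, 27.7% below TUG1 and 15.7% below NORAD.

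**Figure D4:**
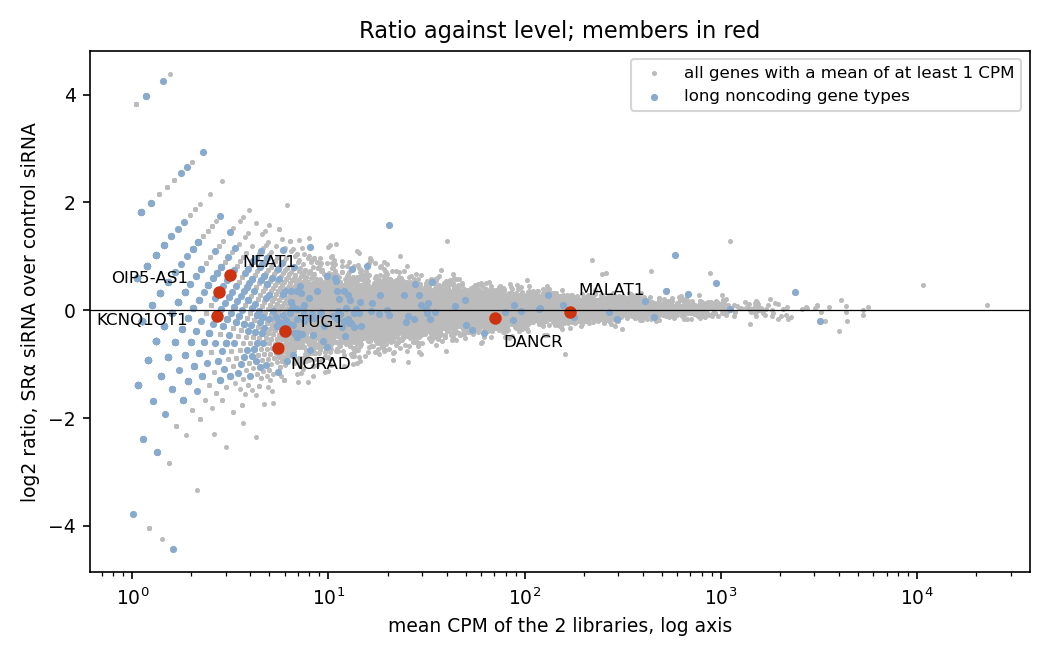
log2 ratio against mean CPM (log axis) for all 12747 measured genes (grey), genes of a long noncoding type (blue) and the 7 RNAs with reads (red). MALAT1 and DANCR lie in the narrow band of well-read genes near 0, and the other 5 lie in the fan of low counts.

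Per length, the order of the set changed at the top. Exonic lengths run from 2285 bases in DANCR to 91667 in KCNQ1OT1, so levels were set beside each other as reads per kilobase of exons and 1e6 reads (RPKM), computed with GENCODE 29 exons. DANCR led with 32.3 RPKM in the control library and 29.5 in the SRα library, followed by MALAT1 with 19.5 and 19.1. DANCR exceeded MALAT1 by 1.66-fold (1.38 to 1.97) and 1.54-fold (1.33 to 1.78). MALAT1 exceeded the next, NORAD, by 15.2-fold (9.37 to 26.3) and 24.6-fold (15.01 to 43.24). These gaps were larger than counting error in both libraries. The libraries came from an mRNA kit, and MALAT1 and the long form of NEAT1 lack an ordinary poly(A) tail. How evenly these RNAs were captured was not tested, here or for the order below.

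Below MALAT1 the order was NORAD at 1.29 and 0.779 RPKM, TUG1 at 0.676 and 0.512, OIP5-AS1 at 0.191 and 0.246, NEAT1 at 0.106 and 0.171, and KCNQ1OT1 at 0.0308 and 0.0284. The order was the same in both libraries, but several neighbours did not differ beyond counting error. NORAD over TUG1 was 1.90-fold (0.912 to 3.96) in the control library and 1.52-fold (0.737 to 3.09) in the SRα library. OIP5-AS1 over NEAT1 was 1.80-fold (0.480 to 6.72) and 1.44-fold (0.614 to 3.29). TUG1 over OIP5-AS1 differed in the control library alone, at 3.54-fold (1.33 to 10.96) against 2.08-fold (0.969 to 4.67), and NEAT1 over KCNQ1OT1 in the SRα library alone, at 6.04-fold (2.54 to 15.03) against 3.45-fold (0.958 to 11.99). Whether these gaps differ between the libraries was not tested. With the longest transcript as length, DANCR stood at 81.7 and 74.5 RPKM, because that transcript has 904 bases, and still led. The length of the short form of NEAT1 was not tried, so the place of NEAT1 in this order rests on the long form.

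The sequence that these RNAs share with other genes was very uneven. In NORAD, 35.3% of 50-base windows of the annotated transcript also occurred in a transcript of a gene elsewhere, on either strand, and in CYTOR 24.1% of the windows of all its transcripts did. For NORAD the gene with most of them was OVCH1-AS1, with 22.7% of its windows, and for CYTOR it was MIR4435-2HG, with 16.0%. Across the 38 annotated CYTOR transcripts the share ran from 8.18% to 90.2%, with a median of 45.9%. KCNQ1OT1 had 2.05%, OIP5-AS1 1.22% and NEAT1 0.352%, while MALAT1, TUG1 and DANCR had 0. By comparison 22 snoRNA host RNAs had 0 to 3.01%, with a median of 0.

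NORAD and CYTOR thus had both the highest shares of repeated sequence and low or absent counts in files that count unique alignments only. TUG1, with a share of 0, had as few reads as NORAD, and the part of shared sequence in any of these counts was not tested. With windows of 30 bases the shares were 57.7% for NORAD and 29.4% for CYTOR, 8.48% for OIP5-AS1 and at most 4.95% for the others. Exons of other gene entries in the annotation covered 14.4% of TUG1, 11.9% of DANCR and at most 6.29% of the others, and 0% of NORAD. Part of the TUG1 share came from short RNA entries on its own strand, such as RF01891 (2.3%), that are not among the counted gene IDs. Read length was not known here, and pseudogene copies outside annotated transcripts were not searched.

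**Figure D5:**
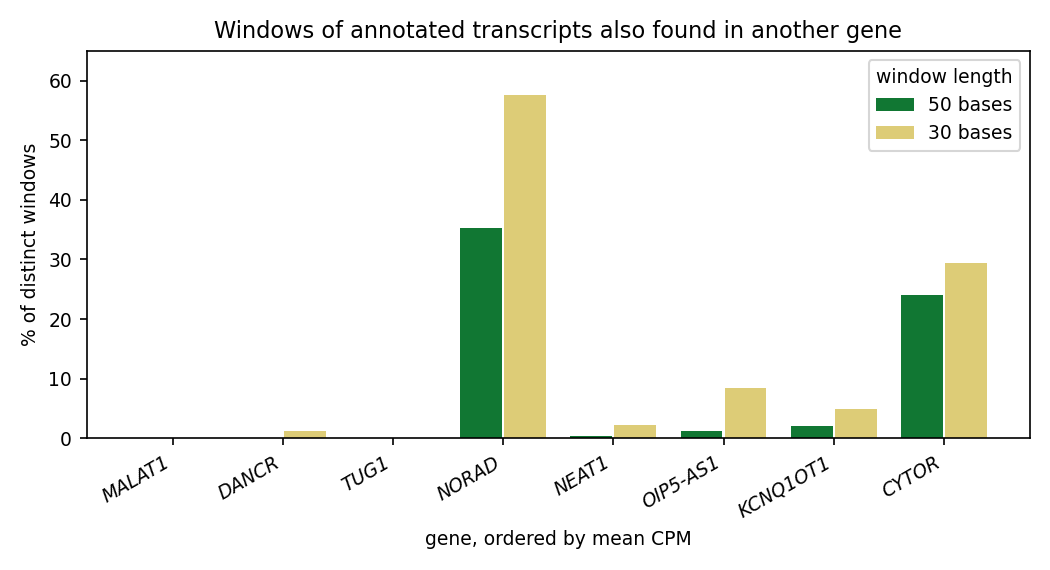
Share of distinct windows of each RNA's annotated transcripts that also occur in a transcript of another gene elsewhere in the genome, for windows of 50 bases (green) and 30 bases (yellow), with the genes ordered by mean CPM. NORAD (35.3% and 57.7%) and CYTOR (24.1% and 29.4%) stand apart, and MALAT1 and TUG1 are at 0 for both.

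Messages of proteins that work with these RNAs were followed by list, and their depth varied widely. Of 32 measured paraspeckle proteins 26 had a log2 ratio above 0 and 6 below, with a median of 0.09, and 1 was at least 1.5-fold higher and 0 lower. Among the core proteins that bind NEAT1, NONO had 638 and 683 CPM with a log2 ratio of 0.10 (0.01 to 0.19), SFPQ had 918 and 1119 CPM with 0.29 (0.21 to 0.36), and PSPC1 had 126 and 128 CPM with 0.02 (-0.18 to 0.23). The RNA-binding proteins RBM4B and RBMX were highest in that list, RBM4B being the 1 past 1.5-fold, at 0.63 (-0.16 to 1.49) and 0.45 (0.22 to 0.69), and AKAP8L and RBM7 lowest, at -0.11 (-0.40 to 0.18) and -0.06 (-0.69 to 0.58). The interval excluded 0 for 7 of the 32, all higher. In the whole table it excluded 0 for 16.6% of genes averaging 50 CPM or more, and 59.9% of these had a ratio above 0. Their median log2 ratio was 0.04, and 0.175% stood 1.5-fold or more higher and 0.0499% lower. Of genes averaging 1 to 10 CPM, as RBM4B does, 17.4% stood 1.5-fold or more higher, as did 6.55% of all measured genes.

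Of 25 measured nuclear speckle proteins, partners of MALAT1, 18 were above 0 and 7 below, with a median of 0.06, and 0 passed 1.5-fold. The kinases CLK2, at -0.30 (-0.62 to 0.02), and PRPF4B, at 0.26 (0.00 to 0.51), were the ends of that list. Factors of RNA 3′ end processing and nuclear turnover, among them subunits of RNase P, which cuts the 3′ ends of MALAT1 and NEAT1, had 19 of 23 above 0 and a median of 0.11, and again 0 passed 1.5-fold. ZCCHC8, of the nuclear exosome targeting complex, had 0.33 (0.02 to 0.65), and the RNase P subunits POP4 and POP5 had 0.20 (-0.19 to 0.60) and -0.07 (-0.27 to 0.14). Beside these lists, 59.9% of genes averaging 50 CPM or more were above 0, with a median of 0.04. Of the same genes, 0.175% stood 1.5-fold or more higher and 0.0499% lower, so few calls are usual at that depth.

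The message of PUM2, a Pumilio protein that binds NORAD, had more assigned reads per length than NORAD. PUM2 had 190 and 279 reads, 10.996 and 10.39 RPKM, against the NORAD values of 1.29 and 0.779 RPKM above. Its log2 ratio was -0.08 (-0.35 to 0.19). Of the 50-base windows of NORAD, 35.3% also occur in other genes, and reads aligned to more than 1 place were not assigned. The part of this in the gap between PUM2 and NORAD was not tested. The 8 NORAD partners had 4 above 0 and 4 below, with a median of 0.03 and 0 past 1.5-fold, and RBMX and the spliceosome protein CDC5L, at 0.31 (0.15 to 0.47), were highest. Of genes averaging 50 CPM or more, 59.9% were above 0, and 0.175% stood 1.5-fold or more higher and 0.0499% lower.

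For OIP5-AS1 and miR-7, 13 partners were measured, 8 above 0 and 5 below, with a median of 0.10 and 0 past 1.5-fold. ELAVL1, which binds OIP5-AS1, had a log2 ratio of 0.09 (-0.04 to 0.22), and ZSWIM8, of the ubiquitin ligase that carries out target-directed microRNA decay, had 0.00 (-0.54 to 0.55) from 49 and 76 reads. AGO2, the slicing Argonaute, had -0.19 (-0.49 to 0.11). Polycomb and other silencing factors, linked to TUG1 and KCNQ1OT1, had 13 of 22 above 0 and a median of 0.10, with 1 at least 1.5-fold lower, CBX7, from 5 and 4 reads (named after its values were seen). The methyltransferase EZH2 had 0.26 (0.07 to 0.46), its partner EED 0.30 (-0.01 to 0.61), and the accessory subunits AEBP2 and PHF19 -0.35 (-0.68 to -0.02) and -0.32 (-0.84 to 0.21). Host, antisense and neighbouring genes had 6 of 13 above 0 and a median of -0.01, from LTBP3, a neighbour of MALAT1, at -0.55 (-1.26 to 0.15) to EPB41L1, near NORAD, at 0.30 (-0.42 to 1.06). Beside these lists, 51.4% of all measured genes were above 0, with a median of 0.01. For genes averaging 50 CPM or more these values were 59.9% and 0.04. Past 1.5-fold were 6.55% of all measured genes higher and 6.97% lower, and 0.175% and 0.0499% of those averaging 50 CPM or more. Of genes averaging 1 to 10 CPM, as CBX7 does, 19.1% stood 1.5-fold or more lower.

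Other long noncoding RNAs give the scale for these counts. Of 20 measured snoRNA host RNAs, 11 were above 0 and 9 below, with a median of 0.03, SNHG10 alone passed 1.5-fold, from 8 and 19 reads, named after its values were seen. SNHG1 had 1511 and 2887 reads, above MALAT1 in both libraries, with a log2 ratio of 0.30 (0.21 to 0.39), and GAS5 had 373 and 621 with 0.10 (-0.09 to 0.29). SNHG25 had -0.41 (-0.71 to -0.12), the lowest host after EPB41L4A-AS1 at -0.47 (-1.18 to 0.22). Of 32 other measured RNAs in the list of named long noncoding RNAs, 14 were above 0 and 18 below, with a median of -0.04 (0.03 over those averaging 5 CPM or more), with 5 at least 1.5-fold higher and 7 lower. The 5 were EMX2OS, from 1 and 12 reads, FGD5-AS1, LINC00467, MCM3AP-AS1 and TP53TG1, and the 7 were CCDC18-AS1, HOXA-AS2, LINC00963, PCAT6, SBF2-AS1, MIR22HG and MIR99AHG, most of them named after their values were seen. SBF2-AS1 had 19 and 13 reads and -1.15 (-2.32 to -0.09), and TP53TG1 had 10 and 27 reads and 0.77 (-0.29 to 2.01). Over all 508 measured genes of a long noncoding type, 20.5% stood 1.5-fold or more higher and 21.3% lower, 8.46% and 11.2% passed 2-fold, 45.1% were above 0 and 6.1% had an interval without 0, with a median of -0.06. The shares past 1.5-fold exceed those of all measured genes, 6.55% higher and 6.97% lower. They lie nearer the 17.4% and 19.1% of genes of any type averaging 1 to 10 CPM. The share with an interval without 0 was below the 8.85% of all measured genes and above the 4.09% of genes averaging 1 to 10 CPM. Of the 13085 gene IDs of these types, 11133 had no read in either library.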

How the data were processed

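RNA-seq libraries of HEK293T cells (1 per group) came from TRIzol-extracted RNA and the TruSeq Stranded mRNA kit, per the labels' protocols. The deposited values are raw read counts per Ensembl gene ID. cutadapt and STAR 2.5.2b were used on build hg19, per the submitters' processing notes; which program counted the reads, with which strand setting and gene models, was not known here. The 5 closing summary lines of each file were kept out of library sizes; reads in no gene were 7.23% and 7.49% and reads matching several genes 4.67% and 4.58% of unique alignments.

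Library sizes were scaled by TMM (edgeR 4.0.16, R 4.3.3) to 2476276 and 3847820. A log2 ratio is that of CPM, SRα siRNA over control siRNA, with 0.5 added per count, scaled to depth, and the exact Clopper-Pearson 95% interval of the 2 counts given their sum; levels have exact Poisson intervals. Calls are by fold alone. Symbols came from a gene name table for 51996 IDs. GENCODE 29 gave gene types, exons and transcripts by gene ID, and its models may differ from those counted; no coordinates are given, since an hg19 annotation was not used here. Named genes are the 8 RNAs, SRPRA, fixed partners and up to 2 highest and 2 lowest genes of a list with a mean of at least 5 CPM, plus a few chosen after their values were seen (GAS5, VIM, PAX2, PTPRC, UMOD, SNORA26, SNHG10, CBX7, COL1A1 and genes of the named long noncoding list past 1.5-fold). Of these lists, 14 symbols were not found and not analysed here, and 1 fixed partner is not reported here. The members and lists were chosen with earlier results of these data known, and the window lengths and CPM ranges after seeing values. Python 3.11.15, numpy 2.4.6, scipy 1.17.1, pandas 2.3.3 and matplotlib 3.10.9 were used. The interval code was run on simulated Poisson counts, the model that the intervals assume, which checks the code and not the fit to these data.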

Additional observations from a re-analysis of the deposited data

How the results depend on the processing

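Scaling by library totals, DESeq2 1.42.0 size factors, upper quartile factors or totals without mitochondrial and the 10 most-read genes, a prior count of 2, thinning of the deeper library, and removal of trends with GC content or exonic length (8 alternatives) left every log2 ratio of the 7 RNAs inside its counting interval. MALAT1 ran from -0.09 to -0.02, DANCR from -0.25 to -0.12, NORAD from -1.01 to -0.65, TUG1 from -0.44 to -0.14, KCNQ1OT1 from -0.41 to -0.10, NEAT1 from 0.24 to 0.66 and OIP5-AS1 from -0.21 to 0.35. The median ran from -0.26 to -0.10 over 10 alternatives. The 1 RNA at least 1.5-fold higher became 0 with a prior count of 2, 0 after thinning, 0 with a mean of at least 5 CPM required, and 0 at 2-fold. The 1 RNA at least 1.5-fold lower became 0 at 2-fold, and the 2 RNAs above 0 became 1 after thinning. With the longest transcript as length DANCR stood at 81.7 and 74.5 RPKM, and other levels stayed inside their intervals. For NORAD and KCNQ1OT1 both lengths are equal, and for MALAT1 (8708 against 8829 bases) and NEAT1 (22743 against 22767) nearly so. The levels of these RNAs could therefore hardly move. With a mean of at least 5 CPM required, the median of the other named long noncoding RNAs turned from -0.04 to 0.03 and that of the host and neighbouring genes from -0.01 to 0.00, and the other list medians kept their sign; with thinning the sign of OIP5-AS1 turned, to -0.21. With 1 library per group, none can be left out. No paired analysis was possible because each group has 1 library and no test was made. Depth limits 5 of the 7 ratios, which rest on 6 to 20 reads per library.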

Other observations

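Among genes of a long noncoding type, 2 named entries well above MALAT1 were structured RNAs. RMRP, the RNA of RNase MRP, had 2720 and 4303 reads (control, then SRα siRNA) and TERC, the RNA template of telomerase, 1177 and 1678, with log2 ratios of 0.03 and -0.12. Of the entries without a symbol, ENSG00000260464 had 957 and 3020 reads in that order, a log2 ratio of 1.02, and ENSG00000259001 had 8484 and 11530, with -0.19. These were chosen after their values were seen.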
